A study of Mus musculus with 29 samples.

Results

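Genes that the tumour suppressor p53 switches on were followed in mouse myoblasts that had received single microRNAs. The list held 34 genes, which were Trp53 itself, its regulators Mdm2 and Mdm4, and direct target genes for growth arrest, cell death, DNA repair, metabolism and signalling. For a gene with several probe sets of that single symbol, the one with the highest mean over the 27 transfected arrays was taken. This gave values for 32 of 34 members among 19938 genes. Trp53 and Gdf15 were not analysed here, because no probe set was listed with their symbol alone. The cells were C2C12, a mouse line of muscle precursor cells at passage 27, and all groups came from this 1 line, so no other genetic background was sampled. Mimics of Let-7b, miR-1, miR-145, miR-22, miR-29a, miR-34a and miR-365 were each transfected at 50 nM, and cells transfected with the negative control oligonucleotide AllStar served as the control. RNA was taken after 36 h. Every mimic had 3 arrays from 3 independent experiments, and the control had 6 arrays, which were 3 experiments with a technical repeat of each and counted as 3 values. Untransfected cells added 1 array of differentiated myotubes and 1 array of dividing myoblasts at 70% confluence, so nothing about these was replicated. Values are log2 intensities, differences are log2 differences of a mimic minus the control with the standard error of the model, and the number of arrays limits their precision. A gene is said to have risen or fallen where its adjusted p was under 0.05 over all genes.

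The p53 protein is a transcription factor that is kept scarce by Mdm2, a ubiquitin ligase that marks it for degradation, and held inactive by Mdm4, a relative of Mdm2. When DNA is damaged or growth signals conflict, p53 accumulates and binds a response element made of a pair of half-sites near its target genes. The targets then stop the cell cycle, repair DNA, tune metabolism or drive apoptosis, and some, Mdm2 and Ppm1d among them, feed back to switch p53 off. In muscle precursors p53 is known both for the response to stress and for a part in differentiation. The gene of miR-34a is itself a direct p53 target.

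A mimic acts through its seed, bases 2 to 8 of the mature strand, which pairs with messenger RNAs. The mature strands usually meant by the names of the mimics are shown so that the seeds can be compared, with the seed in capitals. They are taken from RefSeq (GRCm38.p6), which matched 5 of 7 mimics. The entries for miR-1 and miR-145 were not used here, and the labels do not say which strand each mimic carried. The gene of miR-365 has 2 copies with the same mature sequence, of which 1 is given.
mmu-miR-34a-5p, chr4:150068473-150068494, plus strand: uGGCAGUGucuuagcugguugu
mmu-miR-22-3p, chr11:75463772-75463793, plus strand: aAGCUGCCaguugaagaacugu
mmu-miR-365-3p, chr11:79726467-79726488, plus strand: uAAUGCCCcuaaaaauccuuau
mmu-miR-29a-3p, chr6:31062673-31062694, minus strand: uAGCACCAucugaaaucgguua
mmu-let-7b-5p, chr15:85707325-85707346, plus strand: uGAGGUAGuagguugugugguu
The 5 seeds all differ, so members that rose under several of these mimics did so under different seeds. Whether a member's messenger RNA carries a match to a seed was not tested.

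The p53 half-site is 10 bases long and reads the same on both strands, so 1 search covers both. RefSeq promoters (GRCm38.p6), from 250 bases before to 50 bases after the gene start, were available for 24 of the 32 members. An exact half-site by the standard consensus lay in a promoter of 9 of these 24 genes (37.5%), which were Mdm2, Ppm1d, Ccng1, Gadd45a, Sesn1, Aen, Ei24, Polk and Rap2b. Among all 27025 genes with a promoter the share was 9.55%. Counted by window, since some genes have several starts, it was 32.3% of 31 member windows and 8.36% of 32851 windows. A pair of half-sites at most 13 bases apart with at most 1 mismatch in all was found for Ccng1 and Polk, against 1.24% of all genes. The 250 bases before the start are shown for both of these genes, for the feedback gene Mdm2, for Gadd45a, which rose under 6 mimics, and for Ei24, which fell under 3, with the matches in capitals.
Ccng1, chr11:40755287-40755536, minus strand: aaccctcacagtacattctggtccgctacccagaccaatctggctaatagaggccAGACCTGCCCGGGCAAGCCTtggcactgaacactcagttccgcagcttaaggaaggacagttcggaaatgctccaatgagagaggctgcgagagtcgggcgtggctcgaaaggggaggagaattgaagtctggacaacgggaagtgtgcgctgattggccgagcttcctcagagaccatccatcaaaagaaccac
Polk, chr13:96519188-96519437, minus strand: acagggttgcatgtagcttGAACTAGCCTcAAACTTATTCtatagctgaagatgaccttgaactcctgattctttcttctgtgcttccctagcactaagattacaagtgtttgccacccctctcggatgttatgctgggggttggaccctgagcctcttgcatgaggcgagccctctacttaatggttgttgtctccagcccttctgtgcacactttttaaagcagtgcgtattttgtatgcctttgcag
Mdm2, chr10:117710759-117711008, minus strand: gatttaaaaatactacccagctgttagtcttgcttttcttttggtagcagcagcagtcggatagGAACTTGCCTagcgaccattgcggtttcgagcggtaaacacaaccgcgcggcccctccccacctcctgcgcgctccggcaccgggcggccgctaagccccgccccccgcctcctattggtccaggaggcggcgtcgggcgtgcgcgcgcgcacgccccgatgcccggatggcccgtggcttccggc
Gadd45a, chr6:67037408-67037657, minus strand: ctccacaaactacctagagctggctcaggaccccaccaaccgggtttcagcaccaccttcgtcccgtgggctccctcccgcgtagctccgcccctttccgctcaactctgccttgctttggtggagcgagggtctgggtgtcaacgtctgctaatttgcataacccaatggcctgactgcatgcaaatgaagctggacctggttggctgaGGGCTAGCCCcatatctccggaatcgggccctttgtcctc
Ei24, chr9:36797335-36797584, minus strand: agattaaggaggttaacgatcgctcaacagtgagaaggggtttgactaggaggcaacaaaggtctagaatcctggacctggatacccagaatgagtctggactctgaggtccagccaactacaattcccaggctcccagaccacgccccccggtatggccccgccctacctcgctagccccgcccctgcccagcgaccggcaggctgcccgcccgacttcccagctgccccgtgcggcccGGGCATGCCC
Counted from the first capital, the match begins 195 bases before the start of Ccng1, 231 before that of Polk, 186 before that of Mdm2, 40 before that of Gadd45a and 10 before that of Ei24. The window of Polk belongs to 1 of its 2 listed starts, and this start lies inside the gene (chr13:96480687-96542579). The window at the outer start of Polk (chr13:96542530-96542829) held no half-site and no pair. A match describes the letters of these windows and does not show that p53 bound there.

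More p53 target genes rose than fell under each of the 7 mimics, and the number that rose was highest under miR-1. By limma, 25 of 32 members passed under miR-1 (23.7% of all genes did), of which 23 rose and 2 fell (13.2% and 10.5% of all genes). For miR-22 and miR-365, 18 of 32 members passed under miR-22 (14.5% of all genes did), of which 16 rose and 2 fell (8.82% and 5.67% of all genes), and 16 of 32 members passed under miR-365 (20% of all genes did), of which 15 rose and 1 fell (11.7% and 8.33% of all genes). For the other mimics the numbers were smaller, since 13 of 32 members passed under miR-34a (11.7% of all genes did), of which 10 rose and 3 fell (5.62% and 6.06% of all genes). Likewise 12 of 32 members passed under miR-29a (10.3% of all genes did), of which 10 rose and 2 fell (5.54% and 4.78% of all genes), and 8 of 32 members passed under Let-7b (10.9% of all genes did), of which 7 rose and 1 fell (5.46% and 5.46% of all genes). The lowest count was that of miR-145, where 6 of 32 members passed under miR-145 (6.85% of all genes did), of which 5 rose and 1 fell (3.85% and 3% of all genes). The share of members that rose was thus above that of all genes in each of the 7 comparisons, while the shares that fell lay between 3.12% and 9.38%. This list was chosen with earlier results of these data known, so the shares describe it and do not test it. The members were mostly bright, with 27 of 32 above the median gene. Without the lowest 40% of genes by mean level, the share of all genes called was higher. Under miR-1 it was 40.4% (24 of 29 members), under miR-365 35.5% (15), under miR-22 26.2% (18) and under miR-34a 21.3% (14). Under Let-7b it was 20.3% (9 of 29 members), under miR-29a 19% (13) and under miR-145 13.4% (7). The median difference of the 32 members was 0.51 under miR-1, 0.31 under miR-365, 0.26 under miR-22, 0.17 under miR-29a, 0.09 under miR-34a, 0.04 under Let-7b and 0.02 under miR-145. The median of all genes lay between -0.01 and 0.04, and it was above that of the members under miR-145, where it was 0.04. In an F test over the 7 differences 31 of 32 members passed, against 49.4% of all genes, and Plk2 had adjusted p = 0.163. The 7 comparisons share the same 3 control values, so they are not independent of each other. The arrays measured whole cultures, where fewer cells of a kind and less RNA per cell cannot be told apart.

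**Figure D1:**
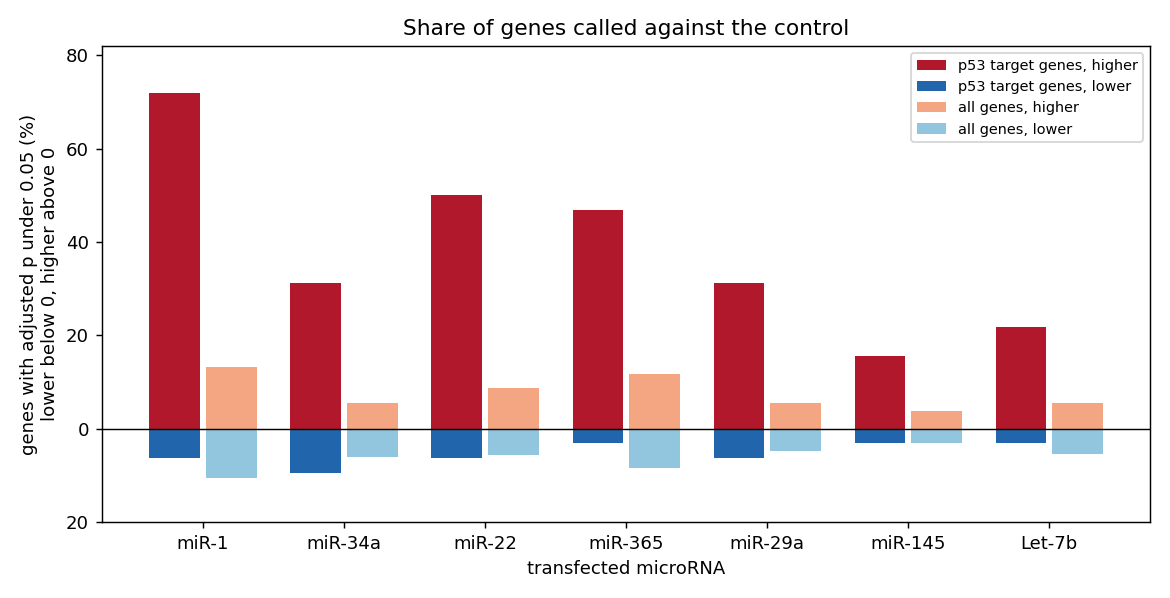
Share of genes with adjusted p under 0.05 against the control for each mimic, in percent, with higher genes above 0 and lower genes below 0, for the 32 p53 target genes and for all genes. The bar of higher p53 target genes reaches 71.9% under miR-1 and 15.6% under miR-145, and it is taller than that of all genes under each mimic.

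The mean of each mimic against the mean of the other 6 mimics is a difference with no control value in it. Control values still entered the estimate of the spread behind its p-values. In this test 113 of 224 member differences passed over the 7 mimics. By this test 21 members were higher and 5 lower under miR-1 (15% and 13.7% of all genes). Likewise 14 members were higher and 4 lower under miR-365 (15.8% and 11.3% of all genes), and 11 members were higher and 3 lower under miR-22 (9.45% and 6.33% of all genes). For each gene these 7 differences sum to 0 by construction, so lower members under some mimics follow from higher ones under others. The counts were 2 members higher and 7 lower under miR-34a (5.9% and 8.18% of all genes), and 4 members higher and 9 lower under miR-29a (8.8% and 8.26% of all genes). Finally, 2 members were higher and 13 lower under miR-145 (10.3% and 8.59% of all genes), and 5 members were higher and 13 lower under Let-7b (8.19% and 10.3% of all genes). The mean over the members in the single samples lay 0.41, 0.35 and 0.58 above the control mean under miR-1, 0.41, 0.26 and 0.52 above it under miR-365, and 0.33, 0.25 and 0.37 above it under miR-22. Of the called differences, 18 of 25 under miR-1, 16 of 18 under miR-22 and 14 of 16 under miR-365 kept their call under every alternative in which they were tested. Perp under miR-1 and miR-365, counted among these, had no value under the filter on the lowest 40% of genes. The numbers were 7 of 13 under miR-34a, 5 of 12 under miR-29a, 3 of 6 under miR-145 and 5 of 8 under Let-7b. Without replicate 3 in every group the 113 differences against the other mimics became 68. The share of all genes in that fit is not given here, so a general loss of calls cannot be told apart. Left-out samples brought the count against the control down to 8 for miR-34a (without miR-34a replicate 3), to 6 for miR-29a (without miR-29a replicate 3 or control replicate 3, and 7 without control replicate 2) and to 5 for Let-7b (without control replicate 2 or 3). The share of all genes called fell in the same fits. In the order given it became 7.43% for miR-34a, 6.71%, 6.67% and 7.06% for miR-29a, and 7.74% and 7.57% for Let-7b.

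Other programmes moved in the same cultures. Of 10 replication genes 9 fell under miR-1, miR-34a and miR-365, 8 under miR-22 and 1 each under miR-29a, miR-145 and Let-7b. Their mean level was 9.45 to 10.05 under miR-1, 10.33 to 10.40 under miR-34a, 10.26 to 10.51 under miR-22, 10.21 to 10.49 under miR-365, 10.69 to 10.90 under miR-29a, 10.74 to 10.89 under miR-145 and 10.63 to 10.83 under Let-7b, against 10.92 to 10.94 in control samples. Of 10 myotube markers 8 rose under miR-1, 7 under miR-34a, 6 under miR-22, 2 under miR-29a, 1 under miR-145 and 0 under miR-365, while 2 fell under Let-7b. By limma, the unadjusted p for miR-365 was under 0.05 for 1 of the 10 markers. The marker mean was 10.91 to 11.44 under miR-1, 11.23 to 11.27 under miR-34a, 11.06 to 11.19 under miR-22, 10.67 to 10.78 under miR-365, 10.60 to 11.03 under miR-29a, 10.42 to 11.16 under miR-145 and 9.58 to 10.40 under Let-7b, against 10.36 to 10.63 in control samples. The 3 mimics with the most risen p53 targets had low replication genes, as did miR-34a, with 10 risen p53 targets. The myotube marker mean under miR-365 lay just above that of the control. Of 8 measured interferon response genes 7 rose under miR-145, with means of 8.12, 7.88 and 11.50 in its 3 samples against 6.62 to 6.79 in control samples, and miR-145 had the fewest risen p53 targets, with 6 members called in either direction and 5 without its replicate 3. The part of these programmes in the p53 target values was not tested. Myoblast markers were bright in every sample, with means of 11.95 to 12.40 under the mimics and 12.15 to 12.28 in control samples, with Myod1 between 11.32 and 12.64. Markers of adipocytes, leukocytes and endothelium stayed between 6.23 and 6.85 on average over all transfected samples, where probe sets with no listed gene had a median of 6.67, and Adipoq, Ptprc and Pecam1 did not exceed 5.42, 5.84 and 6.73. The brightest of these lists were Cebpa (7.98 to 8.97) and Cd68 (7.60 to 8.89), followed by Vwf (7.22 to 7.56), Cd3e (6.89 to 7.51) and Plin1 (6.93 to 7.49), and the other 7 did not exceed 6.69. Cebpa rose under miR-34a and Let-7b, and no other of these 15 markers passed under any mimic. No marker can read 0 on these arrays.

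**Figure D2:**
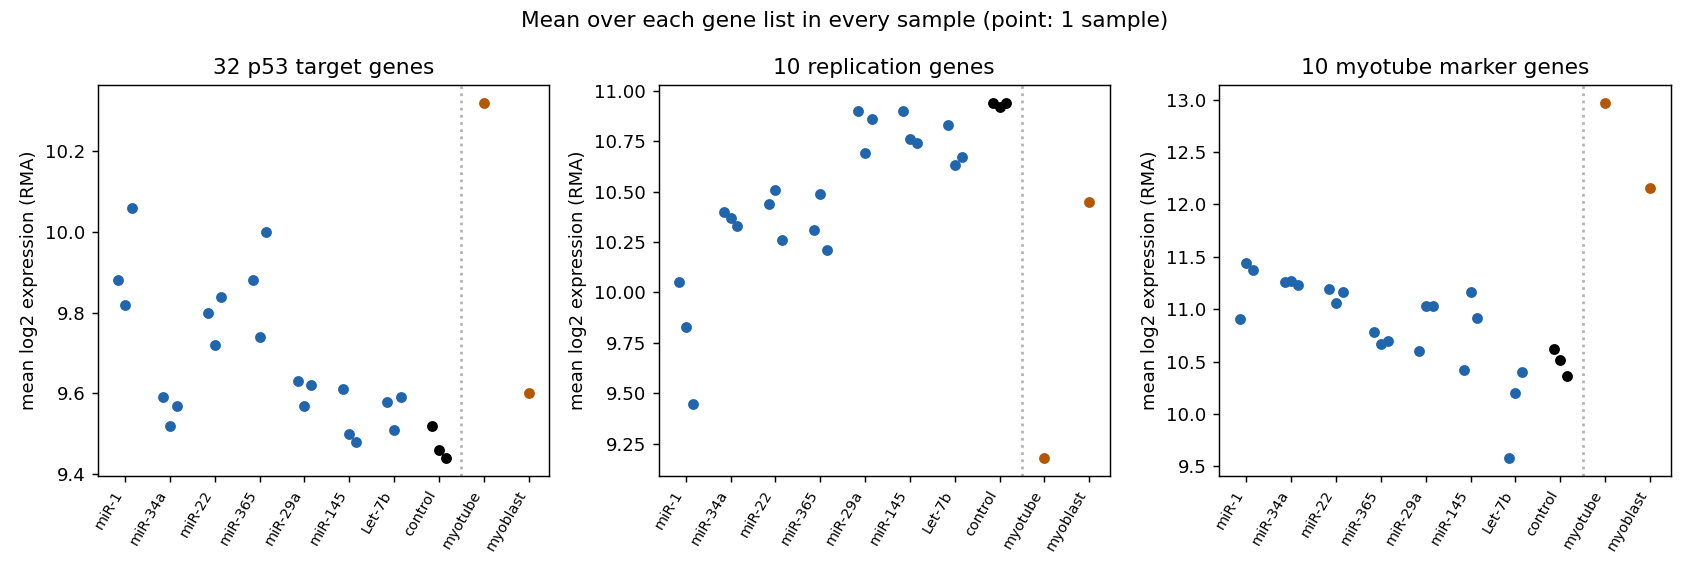
Mean log2 level of the 32 p53 target genes, of 10 replication genes and of 10 myotube markers in every sample, with 1 point per sample, mimics left of the control and untransfected cells at the right. The 3 miR-1 samples are highest for the p53 targets among transfected cells on average and lowest for replication genes, at 9.45 to 10.05.

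Among the regulators of p53 itself, Mdm2 and Trp53inp1 rose and Mdm4 fell. Mdm2, the ligase that degrades p53 and is one of its best known targets, had 10.90, 10.74 and 11.21 under miR-1, 11.08, 10.79 and 11.16 under miR-22 and 10.99, 10.62 and 11.13 under miR-365. It had 10.60, 10.67 and 10.88 under miR-29a, 10.73, 10.46 and 10.51 under miR-34a and 10.39, 10.21 and 10.49 under miR-145, 10.42, 10.24 and 10.47 under Let-7b and 10.58, 10.24 and 10.27 in control samples. All 9 samples of miR-1, miR-22 and miR-365 lay above the 3 control samples, although miR-365 replicate 2 (10.62) was close to control replicate 1 (10.58). The differences were 0.65 ± 0.14 under miR-22 (adjusted p = 0.00192), 0.58 ± 0.14 under miR-1 (adjusted p = 0.0024) and 0.55 ± 0.14 under miR-365 (adjusted p = 0.00529). Trp53inp1, which helps p53 to drive apoptosis and also acts in autophagy, had 10.78, 11.11 and 11.08 under miR-29a, 10.82, 10.79 and 11.31 under miR-365 and 10.31, 10.50 and 10.64 under miR-1. It stood at 10.38, 10.44 and 10.52 under miR-34a, 10.36, 10.42 and 10.63 under Let-7b and 10.18, 10.26 and 10.40 under miR-22. The 3 miR-145 samples had 10.03, 10.03 and 10.00, and the control samples had 9.70, 9.79 and 9.70. Trp53inp1 was above every control sample in all 21 mimic samples. It rose by 1.26 ± 0.12 under miR-29a (adjusted p = 1.9e-07), 1.24 ± 0.12 under miR-365 (adjusted p = 5.3e-08) and 0.76 ± 0.12 under miR-1 (adjusted p = 2.9e-05), by 0.74 ± 0.12 under Let-7b (adjusted p = 1.4e-04), 0.72 ± 0.12 under miR-34a (adjusted p = 1.6e-04) and 0.55 ± 0.12 under miR-22 (adjusted p = 0.00193), while under miR-145 the difference was 0.29 ± 0.12, adjusted p = 0.15. Against the mean of the other mimics it was higher under miR-29a, by 0.54 ± 0.09 (adjusted p = 1.1e-04), and under miR-365, by 0.53 ± 0.09 (adjusted p = 7.6e-05). In a fit blocked on the replicate number, Trp53inp1 also passed under miR-145 (adjusted p = 0.0299).

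Mdm4, which blocks the activating domain of p53, fell under 3 mimics. In human cells it is a known target of miR-34a. Mdm4 had 9.06, 9.19 and 9.02 under miR-34a, 9.32, 9.35 and 9.21 under miR-1 and 9.31, 9.49 and 9.37 under miR-22, against 9.77, 9.75 and 9.67 in control samples. Under the other mimics it had 9.49, 9.58 and 9.36 under miR-145 and 9.45, 9.55 and 9.53 under miR-29a, 9.52, 9.60 and 9.68 under Let-7b and 9.71, 9.83 and 9.87 under miR-365. Every miR-34a sample lay below every sample of the other groups for this gene. The differences were -0.64 ± 0.08 under miR-34a (adjusted p = 4.3e-06), -0.43 ± 0.08 under miR-1 (adjusted p = 1.5e-04) and -0.34 ± 0.08 under miR-22 (adjusted p = 0.00351), and against the other mimics miR-34a stood at -0.42 ± 0.06 (adjusted p = 1.9e-05). Ccng1, a cyclin G that guides a phosphatase to Mdm2, went both ways. It had 13.29, 13.28 and 13.36 under miR-365, 13.20, 13.26 and 13.27 under miR-22 and 13.13, 13.10 and 13.24 under miR-1. Lower values were 12.56, 12.55 and 12.30 under miR-145, 12.79, 12.78 and 12.71 under Let-7b and 12.69, 12.91 and 12.79 under miR-34a. The miR-29a samples had 12.98, 13.21 and 13.10 and the control samples 12.87, 13.02 and 13.02. The 3 miR-145 samples were below all others. Ccng1 rose by 0.34 ± 0.07 under miR-365 (adjusted p = 9.7e-04) and 0.28 ± 0.07 under miR-22 (adjusted p = 0.0083) and fell under miR-145 with a difference of -0.50 ± 0.07, adjusted p = 8.0e-05, which was -0.59 ± 0.05 (adjusted p = 1.1e-07) against the other mimics. Ppm1d, a phosphatase that takes activating phosphates off p53 and a known target of miR-29 in mouse cells, had 10.37, 10.26 and 10.06 under miR-29a and 10.61, 10.62 and 10.52 in control samples. It fell under miR-29a (-0.35 ± 0.08, adjusted p = 0.00532) and under miR-1 (-0.24 ± 0.08, adjusted p = 0.0366). Among these genes, calls were lost for Ppm1d under miR-1 without miR-1 replicate 1 or 3, without control replicate 1 or 2 and with no other group in the model (adjusted p 0.0548 to 0.146), Ppm1d under miR-29a without miR-29a replicate 3 (adjusted p = 0.0555), Mdm2 under miR-365 without miR-365 replicate 3 (adjusted p = 0.0515), and Ccng1 under miR-22 without control replicate 1 (adjusted p = 0.056). In a fit blocked on the replicate number, Mdm2 and Mdm4 also passed under miR-29a, with adjusted p = 0.0118 for a difference of 0.35 ± 0.09 and adjusted p = 0.0281 for -0.22 ± 0.07.

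**Figure D3:**
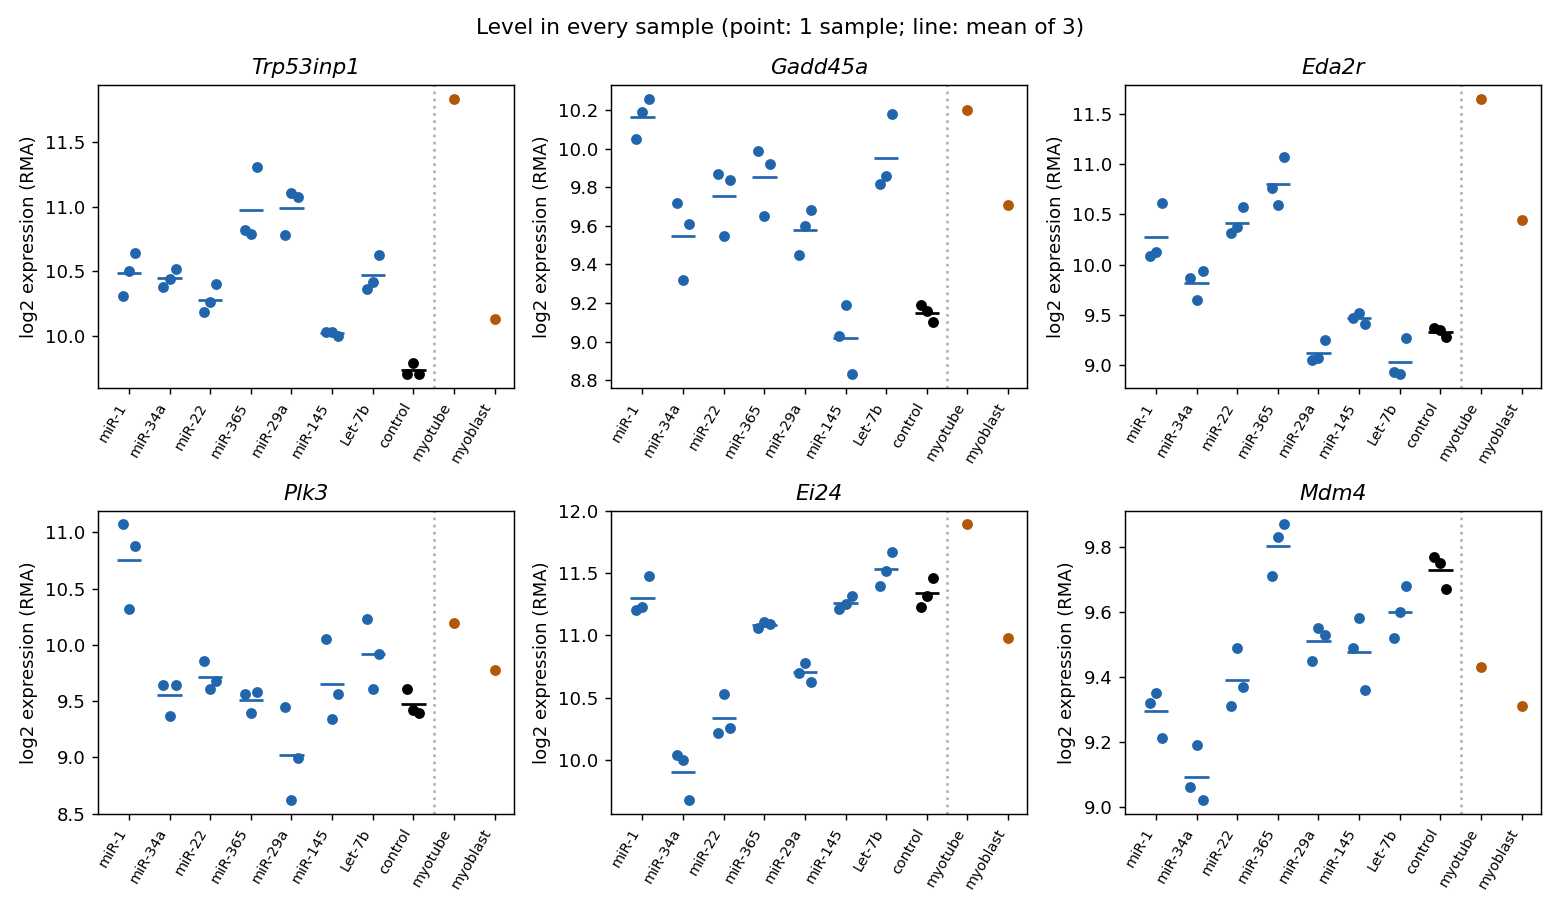
Log2 level of 6 p53 target genes in every sample, with 1 point per sample and a line at the mean of 3, mimics left of the control (black) and untransfected myotubes and myoblasts (brown) at the right. Trp53inp1 lies above the control in all mimic samples, Plk3 stands out under miR-1, and Ei24 and Mdm4 are lowest under miR-34a.

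The genes of growth arrest held the members with the largest rise under miR-1. Gadd45a, a stress sensor that binds the replication clamp, had 10.05, 10.19 and 10.26 under miR-1, 9.99, 9.65 and 9.92 under miR-365 and 9.87, 9.55 and 9.84 under miR-22. It had 9.82, 9.86 and 10.18 under Let-7b, 9.45, 9.60 and 9.68 under miR-29a and 9.72, 9.32 and 9.61 under miR-34a. The miR-145 samples were at 9.03, 9.19 and 8.83 and the control samples at 9.19, 9.16 and 9.10. All samples of the 6 mimics other than miR-145 lay above the control samples, and miR-145 overlapped with them. Gadd45a rose by 1.02 ± 0.12 under miR-1 (adjusted p = 1.3e-06), 0.81 ± 0.12 under Let-7b (adjusted p = 9.2e-05) and 0.71 ± 0.12 under miR-365 (adjusted p = 1.8e-04), and by 0.61 ± 0.12 under miR-22 (adjusted p = 0.00125), 0.43 ± 0.12 under miR-29a (adjusted p = 0.0238) and 0.40 ± 0.12 under miR-34a (adjusted p = 0.0325). The level under miR-1 was above the mean of the other 6 mimics by 0.55 ± 0.09 (adjusted p = 7.3e-05). Let-7b replicate 3 (10.18) still lay above miR-1 replicate 1 (10.05). Against the mean of its other 6 mimics, miR-145 was lower, at -0.79 ± 0.09 (adjusted p = 3.2e-06).

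Plk3, a kinase of the stress response, had 11.07, 10.32 and 10.88 under miR-1, against 9.61, 9.42 and 9.39 in control samples. It had 10.23, 9.61 and 9.92 under Let-7b, 10.05, 9.34 and 9.56 under miR-145 and 9.86, 9.61 and 9.68 under miR-22. The rest had 9.64, 9.37 and 9.64 under miR-34a, 9.56, 9.39 and 9.58 under miR-365 and 9.45, 8.62 and 8.99 under miR-29a. The 3 miR-1 samples lay above all others, and samples of every other mimic overlapped with the control. Without blocks, Plk3 passed under miR-1, with 1.28 ± 0.20, adjusted p = 3.6e-05, and this was 1.19 ± 0.15 (adjusted p = 2.1e-06) against the other mimics, while under Let-7b the difference was 0.45 ± 0.20, adjusted p = 0.195. Sesn1, a sestrin that restrains the growth kinase mTORC1, had 10.23, 10.27 and 10.31 under miR-1 and 9.81, 10.08 and 9.74 under Let-7b and 9.50, 9.32 and 9.28 in control samples. It rose by 0.90 ± 0.14 under miR-1 (adjusted p = 2.3e-05) and 0.51 ± 0.14 under Let-7b (adjusted p = 0.0146), and the miR-1 value exceeded the mean of the other mimics by 0.72 ± 0.10 (adjusted p = 8.7e-06). Btg2, which slows division and speeds messenger RNA decay, had 10.91, 10.63 and 10.84 under miR-22, 10.43, 10.55 and 10.70 under miR-1 and 10.81, 10.23 and 10.49 under miR-365. It had 10.49, 10.24 and 10.46 under miR-34a, 10.21, 10.25 and 10.28 under miR-145 and 9.96, 10.02 and 9.96 under miR-29a, 9.56, 9.64 and 9.83 under Let-7b and 10.00, 9.72 and 9.61 in control samples. Control replicate 1 (10.00) was above the other control samples, and the samples of miR-22, miR-1, miR-365, miR-34a and miR-145 were all above it. Btg2 rose by 1.02 ± 0.12 under miR-22 (adjusted p = 3.6e-06), 0.79 ± 0.12 under miR-1 (adjusted p = 3.1e-05) and 0.73 ± 0.12 under miR-365 (adjusted p = 1.0e-04), and by 0.62 ± 0.12 under miR-34a (adjusted p = 0.00113) and 0.47 ± 0.12 under miR-145 (adjusted p = 0.0188).

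Plk2, the other stress kinase of the group, had differences from -0.09 to 0.41 and passed under no mimic. In a fit blocked on the replicate number it passed under miR-365 (0.41 ± 0.08, adjusted p = 4.9e-04), as did Plk3 under miR-29a (-0.45 ± 0.11, adjusted p = 0.00686). Plk3 passed there under Let-7b too (0.45 ± 0.11, adjusted p = 0.00746). Without the block, Plk2 under miR-365 passed without miR-365 replicate 2 (adjusted p = 0.023) or control replicate 1 (0.0468), and Plk3 under miR-29a without miR-29a replicate 1 (0.0368). Several smaller rises of this group hung on single samples. Calls were lost for Gadd45a under miR-34a without miR-34a replicate 1 or 3 and without any 1 control replicate (adjusted p 0.0623 to 0.168), Gadd45a under miR-29a without miR-29a replicate 2 or 3 and without control replicate 2 or 3 (adjusted p 0.0661 to 0.119), Sesn1 under Let-7b without Let-7b replicate 2 and without control replicate 2 or 3 (adjusted p 0.0585 to 0.0973), and Btg2 under miR-145 without miR-145 replicate 3 and without control replicate 2 or 3 (adjusted p 0.0725 to 0.123).

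**Figure D4:**
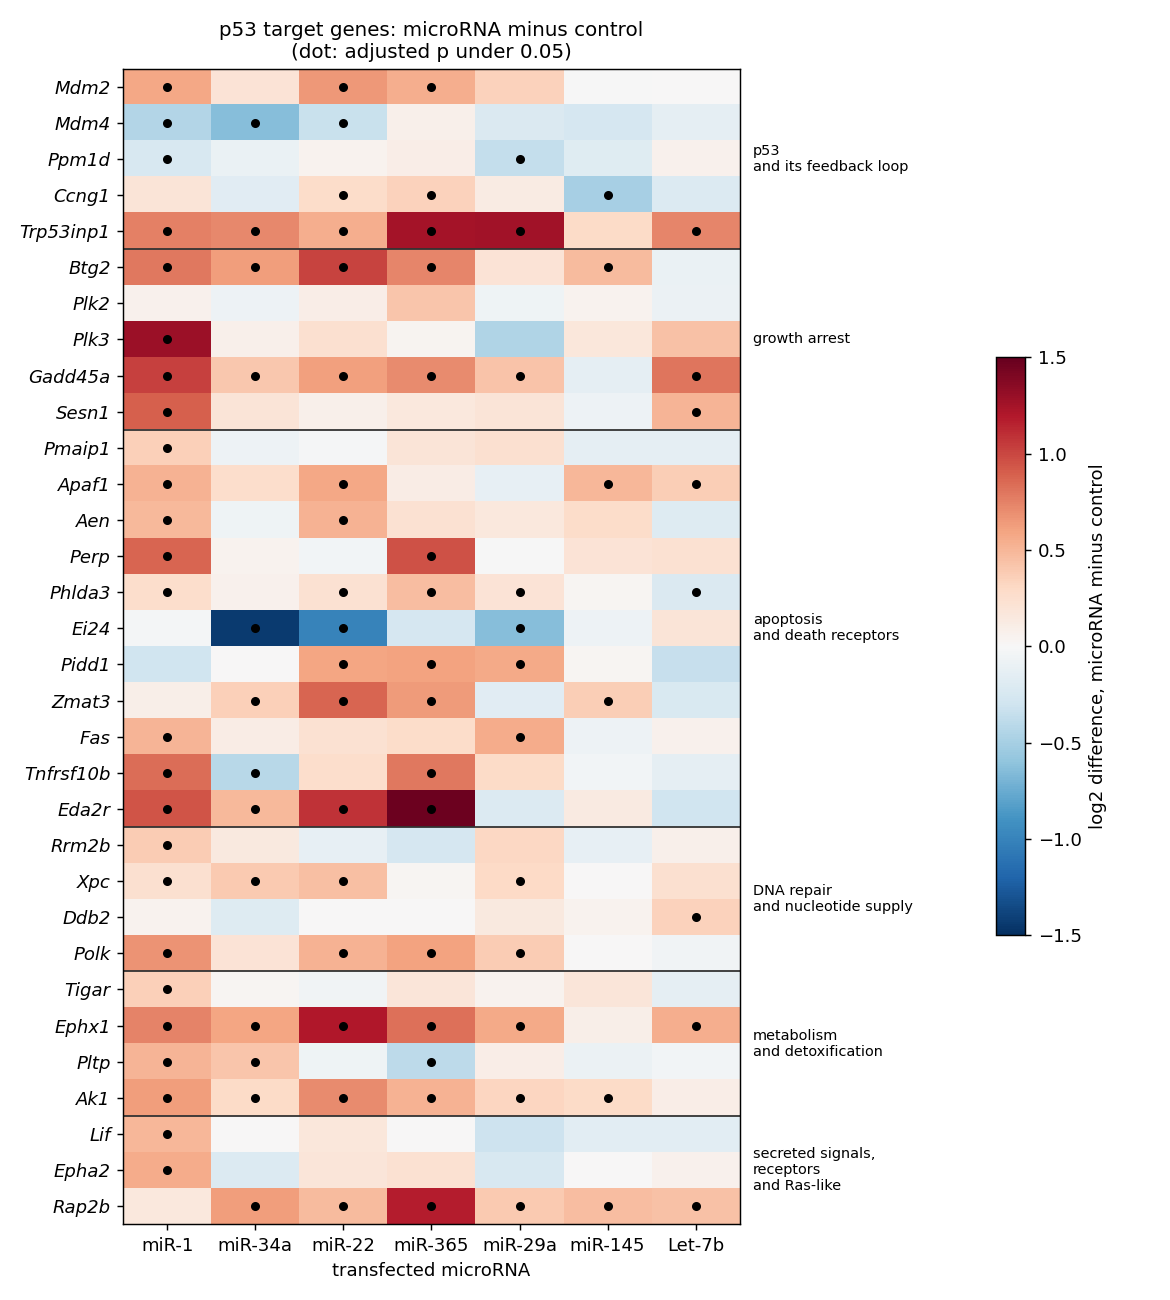
Log2 difference from the control for each of the 32 measured p53 target genes (rows, ordered by role) under each mimic (columns), red for higher and blue for lower, with a dot where the adjusted p was under 0.05. The miR-1, miR-22 and miR-365 columns carry the most red, and Ei24 is the darkest blue, at -1.43 under miR-34a.

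Of the 11 genes of apoptosis and its receptors, 8 rose under miR-1, 6 each under miR-22 and miR-365, 3 under miR-29a, 2 each under miR-34a and miR-145 and 1 under Let-7b. In the other direction 2 fell under miR-34a and 1 each under miR-22, miR-29a and Let-7b, so as many fell as rose under miR-34a and Let-7b. Over all genes the share that rose ran from 3.85% under miR-145 to 13.2% under miR-1. Eda2r, a receptor of the ectodysplasin family, had 10.76, 10.59 and 11.07 under miR-365, 10.31, 10.37 and 10.57 under miR-22 and 10.09, 10.13 and 10.61 under miR-1. It had 9.87, 9.65 and 9.94 under miR-34a, 9.47, 9.52 and 9.41 under miR-145 and 9.05, 9.07 and 9.25 under miR-29a. The Let-7b samples had 8.93, 8.91 and 9.27 and the control samples 9.37, 9.35 and 9.28. Samples of miR-365, miR-22, miR-1, miR-34a and miR-145 were all above the control, and those of miR-29a and Let-7b were all below it. The difference was 1.47 ± 0.13 under miR-365 (adjusted p = 2.4e-08), 1.09 ± 0.13 under miR-22 (adjusted p = 3.8e-06), 0.95 ± 0.13 under miR-1 (adjusted p = 7.2e-06) and 0.49 ± 0.13 under miR-34a (adjusted p = 0.0145). It was -0.29 ± 0.13 under Let-7b (adjusted p = 0.188) and -0.21 ± 0.13 under miR-29a (adjusted p = 0.443), which did not pass. In the fit blocked on the replicate number, Let-7b did pass (adjusted p = 0.0438). The gap between mimics did pass, at 1.11 ± 0.10 (adjusted p = 1.3e-08) for miR-365 and -0.95 ± 0.10 (adjusted p = 3.1e-07) for Let-7b against the mean of the others.

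The death receptor gene Tnfrsf10b moved in opposite directions under different mimics. It had 11.43, 11.41 and 11.79 under miR-1 and 11.53, 11.26 and 11.71 under miR-365, 10.44, 10.13 and 10.31 under miR-34a and 10.84, 10.60 and 10.68 in control samples. It rose by 0.84 ± 0.12 under miR-1 (adjusted p = 1.7e-05) and 0.80 ± 0.12 under miR-365 (adjusted p = 5.2e-05) and fell under miR-34a (-0.41 ± 0.12, adjusted p = 0.0296), where it was -0.75 ± 0.09 (adjusted p = 5.4e-06) against the other mimics. Fas, the classical death receptor gene, had 7.29, 7.53 and 7.26 under miR-29a and 7.24, 7.46 and 7.27 under miR-1 and 6.64, 6.89 and 6.90 in control samples, and rose by 0.55 ± 0.16 under miR-29a (adjusted p = 0.029) and 0.51 ± 0.16 under miR-1 (adjusted p = 0.0218). Perp, a membrane protein of cell contacts and of apoptosis, had 7.63, 7.51 and 8.11 under miR-365 and 7.65, 7.09 and 8.25 under miR-1 and 6.72, 6.80 and 6.85 in control samples. Its 3 miR-1 samples were spread over more than 1 log2 unit, and all 6 were above the control. Perp rose by 0.96 ± 0.18 under miR-365 (adjusted p = 5.5e-04) and 0.87 ± 0.18 under miR-1 (adjusted p = 1.0e-03).

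Inside the cell death machinery, Apaf1 and Zmat3 rose under 4 mimics each and Ei24 fell under 3. Apaf1, the scaffold of the caspase-activating apoptosome, had 9.89, 10.03 and 10.13 under miR-22, 9.80, 9.90 and 10.19 under miR-1 and 9.89, 9.90 and 10.04 under miR-145. It had 9.80, 9.80 and 9.83 under Let-7b, 9.69, 9.69 and 9.75 under miR-34a and 9.49, 9.46 and 9.71 under miR-365. The miR-29a samples had 9.33, 9.36 and 9.27 and the control samples 9.48, 9.40 and 9.44. Samples of miR-22, miR-1, miR-145, Let-7b and miR-34a all lay above the control, and those of miR-29a lay below it. Apaf1 rose by 0.58 ± 0.09 under miR-22 (adjusted p = 7.5e-05) and 0.52 ± 0.09 under miR-1 (adjusted p = 8.9e-05), and by 0.50 ± 0.09 under miR-145 (adjusted p = 8.1e-04) and 0.37 ± 0.09 under Let-7b (adjusted p = 0.00651). Under miR-34a the difference was 0.27 ± 0.09, adjusted p = 0.0533, which passed in the fit blocked on the replicate number (adjusted p = 0.0129). Zmat3, an RNA-binding zinc finger protein, had 10.54, 10.48 and 10.85 under miR-22, 10.37, 10.33 and 10.48 under miR-365 and 10.12, 10.02 and 10.17 under miR-34a. It had 10.12, 10.13 and 10.10 under miR-145, 9.79, 9.69 and 10.04 under miR-1 and 9.58, 9.47 and 9.53 under Let-7b. The miR-29a samples were at 9.69, 9.51 and 9.54 and the control samples at 9.73, 9.71 and 9.82. Samples of miR-22, miR-365, miR-34a and miR-145 all lay above the control, and those of Let-7b and miR-29a lay below it. Zmat3 was highest under miR-22, above the mean of the other mimics by 0.70 ± 0.07 (adjusted p = 2.0e-07). It rose by 0.87 ± 0.09 under miR-22 (adjusted p = 6.6e-07) and 0.64 ± 0.09 under miR-365 (adjusted p = 1.9e-05), and by 0.37 ± 0.09 under miR-145 (adjusted p = 0.0146) and 0.35 ± 0.09 under miR-34a (adjusted p = 0.012).

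Ei24, a membrane protein of the endoplasmic reticulum with a role in autophagy, had the largest fall of any member. It had 10.04, 10.00 and 9.68 under miR-34a, 10.22, 10.53 and 10.26 under miR-22 and 10.70, 10.78 and 10.63 under miR-29a, against 11.23, 11.32 and 11.46 in control samples. Ei24 stood at 11.06, 11.11 and 11.09 under miR-365 and 11.20, 11.23 and 11.48 under miR-1. The remaining samples had 11.21, 11.25 and 11.32 under miR-145 and 11.40, 11.52 and 11.67 under Let-7b. All 9 samples of miR-34a, miR-22 and miR-29a lay below all others. The falls were -1.43 ± 0.10 under miR-34a (adjusted p = 2.6e-09), -1.0 ± 0.10 under miR-22 (adjusted p = 3.1e-07) and -0.63 ± 0.10 under miR-29a (adjusted p = 1.3e-04), which is a level 2.69-fold lower under miR-34a. Against the mean of the other mimics, Ei24 was -1.13 ± 0.08 (adjusted p = 5.3e-10) under miR-34a and -0.63 ± 0.08 (adjusted p = 2.8e-06) under miR-22, while miR-29a did not pass at -0.20 ± 0.08 (adjusted p = 0.0752).

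Phlda3, which holds back the survival kinase Akt, changed by small amounts. It had 12.61, 12.37 and 12.58 under miR-365, 12.26, 12.32 and 12.42 under miR-1 and 12.33, 12.20 and 12.35 under miR-22. It had 12.25, 12.30 and 12.26 under miR-29a, 12.15, 12.08 and 12.16 under miR-34a and 12.12, 12.04 and 12.14 under miR-145. The Let-7b samples had 11.78, 11.93 and 11.83 and the control samples 12.05, 12.07 and 12.08. The 3 control samples differed by only 0.03, and the Let-7b samples lay below them all. Phlda3 rose by 0.46 ± 0.06 under miR-365 (adjusted p = 7.6e-06) and 0.27 ± 0.06 under miR-1 (adjusted p = 0.00176), by 0.23 ± 0.06 under miR-22 (adjusted p = 0.0116) and 0.21 ± 0.06 under miR-29a (adjusted p = 0.0294), and fell under Let-7b (-0.22 ± 0.06, adjusted p = 0.0195). Pidd1, which assembles a complex that activates caspase 2, had 9.11, 8.71 and 9.10 under miR-365, 9.07, 8.78 and 9.05 under miR-22 and 9.07, 8.70 and 9.07 under miR-29a. It had 8.64, 8.26 and 8.30 under miR-145, 8.43, 8.25 and 8.46 under miR-34a and 8.15, 7.93 and 8.14 under miR-1. The Let-7b samples had 8.25, 7.89 and 7.96 and the control samples 8.58, 8.32 and 8.24. Replicate 2 was the lowest sample of each of the 7 mimics, and all samples of miR-365, miR-22 and miR-29a stood above the control. Pidd1 rose by 0.60 ± 0.14 under miR-365 (adjusted p = 0.00235), 0.59 ± 0.14 under miR-22 (adjusted p = 0.00388) and 0.57 ± 0.14 under miR-29a (adjusted p = 0.00704). The 3 miR-1 samples lay below the control, at -0.30 ± 0.14 (adjusted p = 0.121), and Let-7b stood at -0.34 ± 0.14 (adjusted p = 0.123). Both passed as lower in the blocked fit (adjusted p = 0.00758 and 0.00566). Against the mean of the other mimics they were -0.54 ± 0.10 (adjusted p = 2.5e-04) and -0.59 ± 0.10 (adjusted p = 2.0e-04). Aen, a nuclease that promotes apoptosis, rose by 0.52 ± 0.10 under miR-22 (adjusted p = 7.9e-04) and 0.49 ± 0.10 under miR-1 (adjusted p = 6.5e-04), and Pmaip1, the BH3-only protein Noxa, rose under miR-1 only (0.35 ± 0.10, adjusted p = 0.00929, and 0.34 ± 0.07 (adjusted p = 0.00103) against the other mimics).

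Among the genes of apoptosis, calls were lost for Phlda3 under miR-29a without miR-29a replicate 2 or 3, without any 1 control replicate and without the trend in the variances (adjusted p 0.0624 to 0.117), Phlda3 under miR-22 without miR-22 replicate 1 or 3 (adjusted p 0.0502 to 0.0733), and Phlda3 under Let-7b without Let-7b replicate 1 or 3 and without control replicate 2 or 3 (adjusted p 0.0612 to 0.0975). The same held for Fas under miR-1 without miR-1 replicate 2 and without control replicate 1 (adjusted p 0.0817 to 0.105), Fas under miR-29a without miR-29a replicate 2 or 3 and without any 1 control replicate (adjusted p 0.0531 to 0.147), and Tnfrsf10b under miR-34a without miR-34a replicate 2 or 3, without control replicate 1 or 3 and without the technical repeats (adjusted p 0.0549 to 0.15). It also held for Eda2r under miR-34a without miR-34a replicate 1 or 3 and without control replicate 3 (adjusted p 0.0544 to 0.0844), Zmat3 under miR-34a without miR-34a replicate 3 and without control replicate 2 (adjusted p 0.0545 to 0.0677), Zmat3 under miR-145 without control replicate 1 or 2 (adjusted p 0.0511 to 0.0663), and Pidd1 under miR-29a without control replicate 3 (adjusted p = 0.0503). In a fit blocked on the replicate number, Tnfrsf10b passed under miR-22 (0.27 ± 0.08, adjusted p = 0.0212) and miR-29a (0.29 ± 0.08, adjusted p = 0.0159), and Aen passed under miR-365 (0.23 ± 0.09, adjusted p = 0.048).

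In the DNA repair group Polk and Xpc rose under 4 mimics each. Polk, a polymerase that copies past damaged bases, had 9.89, 9.79 and 10.23 under miR-1, 9.93, 9.72 and 10.08 under miR-365 and 9.83, 9.74 and 9.89 under miR-22. It had 9.61, 9.64 and 9.80 under miR-29a, 9.69, 9.31 and 9.53 under miR-34a and 9.38, 9.38 and 9.17 under miR-145. The Let-7b samples had 9.32, 9.22 and 9.21 and the control samples 9.43, 9.28 and 9.21. Samples of miR-1, miR-365, miR-22 and miR-29a all lay above the control. Polk rose by 0.67 ± 0.11 under miR-1 (adjusted p = 9.5e-05) and 0.60 ± 0.11 under miR-365 (adjusted p = 4.2e-04), and by 0.52 ± 0.11 under miR-22 (adjusted p = 0.00262) and 0.38 ± 0.11 under miR-29a (adjusted p = 0.0351). Xpc, which finds helix-distorting damage for nucleotide excision repair, had 8.12, 7.91 and 8.0 under miR-22, 7.95, 7.88 and 8.04 under miR-34a and 7.85, 7.86 and 7.87 under miR-29a. It had 7.76, 7.83 and 7.83 under miR-1, 7.68, 7.76 and 7.96 under Let-7b and 7.58, 7.49 and 7.69 under miR-365. The miR-145 samples had 7.53, 7.55 and 7.63 and the control samples 7.62, 7.51 and 7.56. Samples of miR-365 and miR-145 overlapped with the control and the others did not. Xpc rose by 0.45 ± 0.08 under miR-22 (adjusted p = 3.0e-04) and 0.40 ± 0.08 under miR-34a (adjusted p = 0.00129), and by 0.30 ± 0.08 under miR-29a (adjusted p = 0.0147) and 0.25 ± 0.08 under miR-1 (adjusted p = 0.0235).

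Rrm2b, the p53-dependent subunit of ribonucleotide reductase, rose under miR-1 (0.38 ± 0.10, adjusted p = 0.00844), and against the other mimics it was higher under miR-1, by 0.37 ± 0.08 (adjusted p = 7.7e-04), and lower under miR-365, at -0.36 ± 0.08 (adjusted p = 0.00122). It passed under miR-29a in the fit blocked on the replicate number (0.31 ± 0.10, adjusted p = 0.0469). Ddb2, a sensor of ultraviolet damage, had 7.18, 6.97 and 6.95 under Let-7b and 6.70, 6.69 and 6.67 in control samples, and rose there (0.35 ± 0.10, adjusted p = 0.0224). Calls of this group were lost for Polk under miR-29a without miR-29a replicate 2 or 3 and without control replicate 2 or 3 (adjusted p 0.0733 to 0.173), Xpc under miR-1 without miR-1 replicate 2 or 3, without control replicate 2 or 3, with no other group in the model and without the technical repeats (adjusted p 0.0564 to 0.0993), and Xpc under miR-29a without miR-29a replicate 3 and without control replicate 2 or 3 (adjusted p 0.053 to 0.0763). They were also lost for Rrm2b under miR-1 without miR-1 replicate 3 and without control replicate 3 (adjusted p 0.0645 to 0.0689), and Ddb2 under Let-7b without Let-7b replicate 1, without any 1 control replicate and after a further quantile normalization (adjusted p 0.0516 to 0.131).

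The metabolic members Ephx1 and Ak1 rose under 6 mimics each. Ephx1, the epoxide hydrolase of the endoplasmic reticulum, had 11.93, 11.87 and 12.07 under miR-22, 11.53, 11.42 and 11.80 under miR-365 and 11.42, 11.38 and 11.71 under miR-1. It had 11.27, 11.29 and 11.49 under miR-34a, 11.41, 11.31 and 11.25 under miR-29a and 11.36, 11.26 and 11.29 under Let-7b. The miR-145 samples had 11.17, 10.91 and 10.45 and the control samples 10.68, 10.92 and 10.68. Under miR-145 the samples fell on both sides of the control, and the other 18 mimic samples were above it. Ephx1 rose by 1.20 ± 0.13 under miR-22 (adjusted p = 1.1e-06), 0.82 ± 0.13 under miR-365 (adjusted p = 6.9e-05) and 0.75 ± 0.13 under miR-1 (adjusted p = 1.4e-04), and by 0.59 ± 0.13 under miR-34a (adjusted p = 0.00364), 0.56 ± 0.13 under miR-29a (adjusted p = 0.00568) and 0.55 ± 0.13 under Let-7b (adjusted p = 0.00686). Only miR-22 stood above the mean of the other mimics, by 0.64 ± 0.10 (adjusted p = 6.6e-05), and miR-145 stood below, at -0.66 ± 0.10 (adjusted p = 5.9e-05). Ak1, an adenylate kinase that balances the adenine nucleotides of muscle, had 11.84, 11.70 and 11.93 under miR-22, 11.72, 11.75 and 11.75 under miR-1 and 11.60, 11.55 and 11.76 under miR-365. It had 11.48, 11.43 and 11.37 under miR-29a, 11.49, 11.37 and 11.34 under miR-145 and 11.27, 11.52 and 11.39 under miR-34a. The Let-7b samples had 11.25, 11.19 and 11.17 and the control samples 11.01, 11.19 and 11.14. All samples of the 6 mimics other than Let-7b lay above the control. Ak1 rose by 0.71 ± 0.07 under miR-22 (adjusted p = 4.1e-07), 0.63 ± 0.07 under miR-1 (adjusted p = 8.2e-07) and 0.53 ± 0.07 under miR-365 (adjusted p = 1.2e-05), and by 0.32 ± 0.07 under miR-29a (adjusted p = 0.00511), 0.29 ± 0.07 under miR-145 (adjusted p = 0.0147) and 0.28 ± 0.07 under miR-34a (adjusted p = 0.0105).

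Pltp, a carrier of phospholipids between lipoproteins, had 10.61, 10.48 and 10.88 under miR-1 and 10.55, 10.53 and 10.59 under miR-34a, 9.69, 9.49 and 10.07 under miR-365 and 10.23, 10.16 and 10.05 in control samples. It rose by 0.51 ± 0.13 under miR-1 (adjusted p = 0.00518) and 0.41 ± 0.13 under miR-34a (adjusted p = 0.0425) and fell under miR-365 (-0.40 ± 0.13, adjusted p = 0.0345), where replicate 3 (10.07) lay inside the range of the control. Tigar, a phosphatase that lowers glycolytic flux, rose under miR-1 (0.36 ± 0.09, adjusted p = 0.00488), and by 0.32 ± 0.07 (adjusted p = 0.00111) against the other mimics. Calls of this group were lost for Ak1 under miR-34a without miR-34a replicate 2 and without control replicate 1 (adjusted p 0.07 to 0.0765), Ak1 under miR-145 without miR-145 replicate 1, without control replicate 1 and with no other group in the model (adjusted p 0.065 to 0.0873), and Pltp under miR-1 without miR-1 replicate 3 (adjusted p = 0.0518). They were also lost for Pltp under miR-34a without any 1 miR-34a replicate and without any 1 control replicate (adjusted p 0.0593 to 0.165), and Pltp under miR-365 without miR-365 replicate 1 or 2, without control replicate 1 or 2, with no other group in the model and without the technical repeats (adjusted p 0.05 to 0.215).

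Of the signalling members, Rap2b rose under every mimic except miR-1. Rap2b, a small GTPase of the Ras family, had 10.11, 10.06 and 10.20 under miR-365, 9.52, 9.53 and 9.70 under miR-34a and 9.34, 9.44 and 9.48 under miR-22. It had 9.42, 9.52 and 9.30 under miR-145, 9.27, 9.48 and 9.43 under Let-7b and 9.31, 9.34 and 9.37 under miR-29a. The miR-1 samples had 9.06, 9.16 and 9.12 and the control samples 8.99, 8.97 and 8.88. All 21 mimic samples stood above the 3 control samples, and miR-365 stood above all other groups. The rise was 1.18 ± 0.08 under miR-365 (adjusted p = 2.2e-10), 0.63 ± 0.08 under miR-34a (adjusted p = 4.3e-06) and 0.47 ± 0.08 under miR-22 (adjusted p = 1.5e-04). It was 0.46 ± 0.08 under miR-145 (adjusted p = 4.1e-04), 0.45 ± 0.08 under Let-7b (adjusted p = 3.1e-04) and 0.39 ± 0.08 under miR-29a (adjusted p = 0.00122). Under miR-1 the difference was 0.16 ± 0.08, adjusted p = 0.136, and against the other mimics miR-1 was lower, at -0.43 ± 0.06 (adjusted p = 4.0e-06), and miR-365 higher, by 0.75 ± 0.06 (adjusted p = 1.5e-09). Epha2, an ephrin receptor, and Lif, a cytokine that acts on muscle precursors, passed under miR-1, with 0.55 ± 0.15, adjusted p = 0.00655 and 0.50 ± 0.16, adjusted p = 0.023. Both were also higher under miR-1 against the other mimics, by 0.55 ± 0.11 (adjusted p = 5.1e-04) and 0.57 ± 0.12 (adjusted p = 7.3e-04). Lif had 8.19, 7.99 and 8.47 under miR-1 and 8.02, 7.55 and 7.58 in control samples, so control replicate 1 (8.02) lay above miR-1 replicate 2 (7.99). These calls were lost for Epha2 under miR-1 without miR-1 replicate 3 (adjusted p = 0.0672), and Lif under miR-1 without miR-1 replicate 3 and without control replicate 2 or 3 (adjusted p 0.104 to 0.161). In a fit blocked on the replicate number Epha2 passed in both directions, higher under miR-365 (0.23 ± 0.08, adjusted p = 0.0281) and lower under miR-29a (-0.24 ± 0.08, adjusted p = 0.0341).

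A list of 35 other genes of the p53 pathway, 32 of them measured, moved in both directions. It held kinases upstream of p53, ligases, relatives of p53 and further targets. Under miR-365, 11 rose and 2 fell (11.7% and 8.33% of all genes). The counts were 6 and 7 under miR-1 (13.2% and 10.5% of all genes) and 5 and 1 under miR-22 (8.82% and 5.67%). They were 2 and 2 under miR-29a (5.54% and 4.78% of all genes) and 1 and 2 under miR-145 (3.85% and 3%). Let-7b had 1 and 1 (5.46% and 5.46% of all genes), and miR-34a had 0 and 4 (5.62% and 6.06%). By limma without adjustment, p was under 0.05 for 5 of the 32 in the higher direction under miR-34a. The highest median was 0.13, under miR-365, and the lowest was -0.03, under Let-7b. Among the further targets, Igfbp3, which binds insulin-like growth factors, rose by 1.91 ± 0.20 (adjusted p = 3.6e-07) under miR-365 and 1.16 ± 0.20 (adjusted p = 3.3e-04) under miR-22. Sesn2, the sister gene of Sesn1, rose by 1.22 ± 0.13 (adjusted p = 3.4e-07) under miR-365 and 0.81 ± 0.13 (adjusted p = 1.2e-04) under miR-22. Trp53i11, another p53-induced gene, rose by 0.72 ± 0.12 (adjusted p = 1.5e-04) under miR-365 and fell under miR-1, with -0.92 ± 0.12 (adjusted p = 5.0e-06), and miR-34a, with -0.90 ± 0.12 (adjusted p = 2.1e-05). Dram1, which links p53 to autophagy, fell under miR-29a, with -0.64 ± 0.09 (adjusted p = 4.8e-05). Of the proteins that act on p53, Pml, which gathers p53 in nuclear bodies, fell under miR-1, with -0.76 ± 0.13 (adjusted p = 7.0e-05). Cop1, a ligase for p53, fell under miR-29a, with -0.55 ± 0.08 (adjusted p = 9.1e-05). Ppp1r13b, a p53-binding protein that favours apoptosis, fell under miR-145, with -0.73 ± 0.10 (adjusted p = 6.3e-05), and its inhibitory relative Ppp1r13l fell under miR-34a, with -0.67 ± 0.17 (adjusted p = 0.0115). Hipk2, a kinase that phosphorylates p53, rose by 0.41 ± 0.07 (adjusted p = 2.5e-04) under miR-29a and fell under miR-145, with -0.56 ± 0.07 (adjusted p = 1.6e-05), and Let-7b, with -0.32 ± 0.07 (adjusted p = 0.00282). Chek2, a kinase of the damage checkpoint, rose by 0.43 ± 0.11 (adjusted p = 0.00849) under Let-7b.

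In untransfected cells p53 target genes were higher in myotubes than in myoblasts, with 1 array each and so with no test. Of the 32 members 31 had a higher value in the myotube array, and Ddb2 had a lower one (6.55 in the myotube array and 6.73 in the myoblast array). Past 1.5-fold, 13 were higher and 0 lower, where 7.42% of all genes were higher and 6.11% lower. Without the lowest 40% of genes, 11 of 29 members were past 1.5-fold, and the share of all genes left is not given. The median difference was 0.51, and -0.02 over all genes, so most genes were not higher in the myotube array. Perp had 9.81 in the myotube array and 6.67 in the myoblast array, a difference of 3.14. Trp53inp1 had 11.84 in the myotube array and 10.13 in the myoblast array, Pltp had 12.26 in the myotube array and 10.55 in the myoblast array, and both differences were 1.71. Next came Pmaip1 with 9.27 in the myotube array and 7.96 in the myoblast array, Mdm2 with 11.71 in the myotube array and 10.49 in the myoblast array and Fas with 8.18 in the myotube array and 6.96 in the myoblast array. Eda2r had 11.65 in the myotube array and 10.44 in the myoblast array. Perp, which had the largest difference, also rose under miR-1 and miR-365, while Pltp fell under miR-365. Ei24 had 11.89 in the myotube array and 10.98 in the myoblast array, so a gene that fell under 3 mimics was higher in the myotube array. Plk3, the largest rise under miR-1, differed by 0.40 between the untransfected arrays. The replication genes averaged 9.18 in the myotube and 10.45 in the myoblast array. The myotube markers averaged 12.97 and 12.16, so the myoblast array already stood above all transfected samples (9.58 to 11.44) for these markers. Of the 32 members 20 were lower in the mean of the control samples than in the untransfected myoblast array, as were 51.5% of all genes, with a median difference of -0.05, and -0.01 over all genes. Past 1.5-fold, 2 were lower and 0 higher, where 3.27% of all genes were lower and 2.03% higher.

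**Figure D5:**
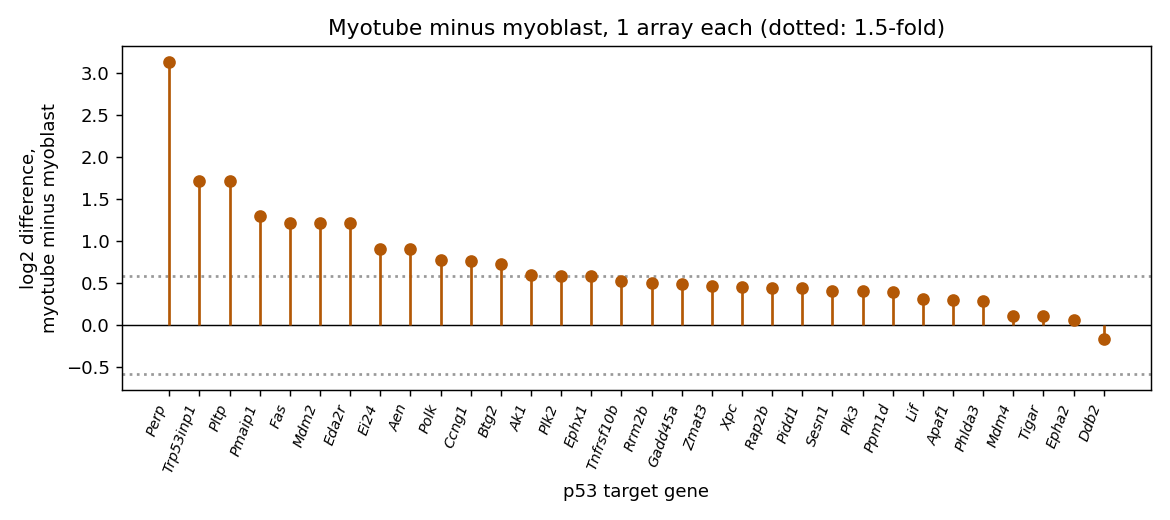
Log2 difference of the myotube minus the myoblast array for each p53 target gene, sorted, with 1 array per state and dotted lines at 1.5-fold. Perp leads with 3.14, 13 members lie above the upper dotted line, and Ddb2 alone lies below 0.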

How the data were processed

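RNA was hybridised to 29 1-colour Affymetrix arrays. The deposited log2 values are RMA values, which the authors made with Affymetrix Expression Console 1.1, per the submitters' processing notes. RMA corrects background, quantile normalises between arrays and summarises each probe set. The genome build and any filters are not given in the sources used here. Of 35556 probe sets, 21789 carried a single gene symbol in the platform annotation, and 1 per gene was kept, which gave 19938 genes.

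Control arrays were averaged with their technical repeats. The resulting 24 values in 8 groups were fitted together with limma 3.58.1 in R 4.3.3, with group as the only term and a trend in the variances. All p-values are 2-sided, moderated by limma across all genes and adjusted by the Benjamini-Hochberg method over all 19938 genes, with calls at 0.05. The steps were tested on simulated data.

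Deviations from the group means correlated by 0.24 on average between samples of the same replicate number and by -0.12 between samples of different numbers. The deviations in a group sum to 0 for each gene, so the negative value follows largely from the positive one. For 23 of the 24 values, the best correlated sample of another group had the same number. All 3 pairs with the control exceeded 0.1 for miR-365, miR-34a, miR-29a and miR-22, with lowest values of 0.301, 0.206, 0.155 and 0.122. They did not for miR-1, miR-145 and Let-7b. For the 4 mimics that pass, the fit blocked on the number is given where it changes a call. For miR-1, miR-145 and Let-7b, the calls it added are listed in the section on processing. The pairing comes from the numbers in the labels and this check.

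Values in every sample were given for Mdm2, for the 3 members with the largest called difference under each mimic whose samples did not overlap with the control, and for members called under 4 or more mimics. Some further members are named that this rule does not select, and these were chosen after their values were seen. Of the other pathway genes, up to 3 called ones per mimic were named. The members and all gene lists were chosen with earlier results of these data known. The alternatives were the mean of a gene's probe sets, no trend, fits of 1 mimic with the control, the replicate block, no technical repeats, technical pairs as a random block, a filter on the lowest 40% of genes, a further quantile normalisation, and leaving out samples.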

Additional observations from a re-analysis of the deposited data

How the results depend on the processing

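Among 3115 recomputed differences of a member under a mimic, 97 lost and 59 gained a call. The sign changed in 82, none of which belonged to a difference with a call, and in these the difference was at most 0.17 in size. The number of members called with 1 sample left out ranged from 19 to 24 for miR-1, 8 to 10 for miR-34a (13 with all samples), 17 to 18 for miR-22, 15 to 16 for miR-365, 6 to 13 for miR-29a (12 with all), 4 to 7 for miR-145 and 5 to 8 for Let-7b. With 1 replicate number left out in all groups it ranged from 26 to 30 for the F test and from 68 to 92 for the differences against the other 6 mimics (113 with all). These fits hold fewer samples, and most fits with 1 sample left out also called fewer of all genes. Without miR-1 replicate 3, where 19 members were called, the share of all genes was 17.2% in place of 23.7%. For the fits without a replicate number, the share of all genes is not given. In the fit with the replicate block, Let-7b had 14 called members in place of 8. Of these 9 rose and 5 fell, in place of 7 and 1. The share of all genes called under Let-7b went from 10.9% to 16.5%. Its samples correlated with the control by 0.0819 at the lowest. The cause was not tested. The block ended no call of any of the 7 mimics, and those it added for miR-365, miR-34a, miR-29a and miR-22 are given with the genes. For miR-1 it added Ccng1 (0.19, adjusted p = 0.0295) and Pidd1 (-0.30, 0.00758). For miR-145 these were Mdm4 (-0.25, 0.015), Trp53inp1 (0.29, 0.0299) and Aen (0.28, 0.0333). For Let-7b they were Plk3 (0.45, 0.00746), Xpc (0.24, 0.0238), Pidd1 (-0.34, 0.00566), Ccng1 (-0.21, 0.0306), Zmat3 (-0.225, 0.0388) and Eda2r (-0.29, 0.0438). Without the technical repeats the counts were 13 for miR-34a, 9 for Let-7b and 112 for the differences against the other 6 mimics. The filter on the lowest 40% of genes removed the dim members Perp, Fas and Ddb2, for which signal close to background limits the measured differences. Every mimic had 3 samples, and the untransfected states had 1 array each.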

Other observations

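The control transfection itself was set beside the untransfected myoblast array, with 1 array on that side and so no test. The p53 target genes lower in the control samples by more than 1.5-fold were Eda2r, with a difference of -1.11, and Ephx1, with -0.65, both of which rose under several mimics relative to the control transfection. Gadd45a, Ak1 and Btg2, which also rose under most mimics, differed by -0.56, -0.55 and -0.54. The untransfected array differed from the control samples in other ways, since its replication genes averaged 10.45, against 10.92 to 10.94 in control samples, and its myotube markers averaged 12.16, against 10.36 to 10.63.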
